A study of Arabidopsis thaliana with 6 samples.

Results

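Class III peroxidases are the plant-specific, secreted haem peroxidases of the cell wall. The 60 loci described here were chosen as Arabidopsis loci of that family, with PER64, a peroxidase of the Casparian strip, left out by the rule, and they are 60 of the 26552 loci with a usable value. Their messages were measured by RNA sequencing of whole seedlings of the accession Col-0, 6 days old, kept in shaken liquid medium under long days. The control group received no dimethylmonothioarsenate (DMMTA), and the treated group received 15 µM DMMTA, a methylated arsenic compound that carries a sulfur in place of an oxygen, for 6 h. There were 3 libraries in each group, labelled as biological replicates, and the accession carries no introduced allele in either group. Nothing in the labels says that replicates came from separate cultures, so p-values measure the spread between these samples. Roots, hypocotyls and leaves were sequenced together. In such bulk samples fewer cells of a type and less RNA per cell cannot be told apart.

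The enzymes take electrons from phenols and other wall components to reduce hydrogen peroxide. Depending on the isoform and on the peroxide at hand, they cross-link lignin units and wall proteins, which stiffens the wall, or they form radicals and reactive oxygen that loosen it. Some isoforms also make hydrogen peroxide in the apoplast when a plant meets a pathogen. NADPH oxidases supply superoxide to the same compartment, and laccases oxidise lignin units with oxygen instead of peroxide. In roots, members of the family are best known from growing root hairs, from the endodermis, whose Casparian strip is made of lignin, and from the xylem.

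The loci lie on all 5 chromosomes, with 12, 11, 8, 12 and 17 on chromosomes 1 to 5 of the RefSeq annotation of TAIR10.1, whose coordinates are used here. Their coding sequences run from 933 to 1119 bases (median 991), and 43 of the 60 have 4 coding exons. For 15 loci the next gene on the chromosome is also one of the 60, and for 10 the closest other member is at least 90% identical over the coding sequence. Reads that fit several copies can be divided or misassigned between them, so levels of such copies are uncertain. The windows below cover 60 coding bases around the codon of the distal histidine, the catalytic residue that splits hydrogen peroxide. They are written 5′ to 3′ with capitals at the bases that differ within each pair. They show how each pair differs in this stretch only, not over the whole coding sequence.

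AT1G05240 and AT1G05250, coding bases 175 to 234 in both, do not differ in this window or anywhere over their 978 coding bases, so their values cannot be told apart.
AT1G05240: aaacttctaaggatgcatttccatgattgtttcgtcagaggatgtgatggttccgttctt
AT1G05250: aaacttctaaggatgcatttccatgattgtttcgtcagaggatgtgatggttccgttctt
PRXCA (coding bases 196 to 255) and PRXCB (193 to 252), a closely related pair on chromosome 3 that is 90.4% identical, differ at 4 of the 60 bases.
PRXCA: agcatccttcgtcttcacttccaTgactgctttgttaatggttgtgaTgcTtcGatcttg
PRXCB: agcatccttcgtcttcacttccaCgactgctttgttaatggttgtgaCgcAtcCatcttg
PER4 (coding bases 160 to 219) and its neighbour AT1G14550 (175 to 234) are 72.3% identical and differ at 15 of the 60 bases.
PER4: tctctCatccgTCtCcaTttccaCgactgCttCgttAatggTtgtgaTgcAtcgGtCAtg
AT1G14550: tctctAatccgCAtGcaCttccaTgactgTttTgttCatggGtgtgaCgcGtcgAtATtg
The neighbours AT5G19880 (coding bases 172 to 231) and AT5G19890 (187 to 246) are 56% identical and differ at 18 of the 60 bases.
AT5G19880: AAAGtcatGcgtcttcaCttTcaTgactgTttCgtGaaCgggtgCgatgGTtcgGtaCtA
AT5G19890: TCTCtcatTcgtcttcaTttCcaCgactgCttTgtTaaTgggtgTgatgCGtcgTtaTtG

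Levels are given as TPM, a measure of abundance scaled by length: deposited RPKM values were added up for each locus and brought to a common library total. The unit is per length, but 10270 of the 26552 loci had several rows, which were added up. Whether reads were divided between such rows was not tested, so levels of different genes, shares and ranks by level are approximate. A locus was tested if it reached 1 TPM in at least 3 of the 6 libraries, and a call means that limma on log2(TPM + 0.5) gave a Benjamini-Hochberg adjusted p below 0.05. Fold changes on that scale understate the change of genes with low levels. Estimated depth was 66500000 to 133000000 reads per library, shallowest in replicate 3 of both groups.

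After 6 h of DMMTA the family split into members that fell and members that rose. Of the 55 loci tested, 22 fell (40.0%) and 14 rose (25.5%), and 19 did not pass the test. The identical copies AT1G05240 and AT1G05250 are counted separately among the falls. Among all 18814 loci tested, 10.5% fell and 17.4% rose, 27.9% in either direction. Falls of at least 2-fold were called for 17 members and rises of that size for 9, against 3.24% and 6.19% of all loci. At 4-fold the counts were 10 falls and 5 rises, against 0.606% and 1.73%. The median log2 fold change was -0.32 over the tested peroxidases and 0.04 over all loci. In all 36 called members the control and DMMTA libraries did not overlap; counting uncalled members too, 23 members lay wholly below and 15 wholly above control, where 18.6% and 27.8% of all loci did so. The members AT2G39040, AT2G41480, AT1G34510 and AT4G16270 passed the level filter only through the control libraries, and AT1G14550 only through the DMMTA libraries, so these 5 had to differ in order to be tested.

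**Figure D1:**
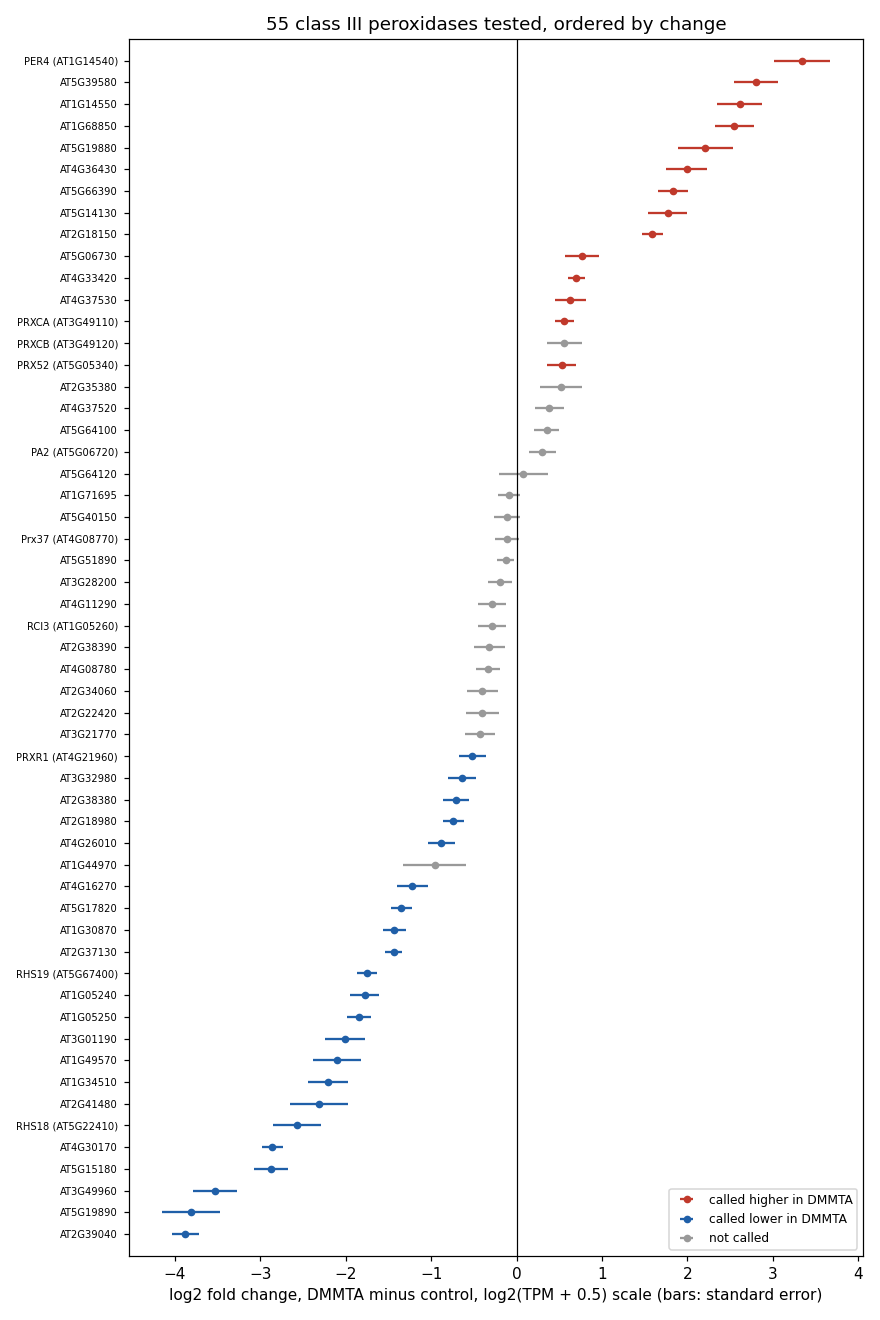
The horizontal axis gives the log2 fold change, DMMTA minus control, on the log2(TPM + 0.5) scale for the 55 tested peroxidases, 1 per row and ordered by change, with bars of 1 standard error. The 14 called rises (red) reach 3.34 at PER4, and the 22 called falls (blue) reach -3.88 at AT2G39040. The 19 members not called (grey) run from -0.96 to 0.56, a range that also holds called members with smaller changes.

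The members that rose had low levels in control seedlings, and most of the strongly expressed ones fell or were not called. Control means of the 14 that rose ran from 0.256 to 32.6 TPM (median 10.3), and those of the 22 that fell from 1.09 to 2228 TPM (median 54.0). Of the 12 members with a control mean of at least 100 TPM, 8 fell and 4 were not called. Among all loci tested, at any level, 10.5% fell. The control mean also enters the fold change, and control levels of risen and fallen loci were not compared over all loci. This pattern may therefore not be particular to the family. Summed over the 60 loci, the family held 5555, 5966 and 4601 TPM in the control libraries and 3615, 4424 and 4377 TPM in the DMMTA libraries. The DMMTA sums lay below every control sum, with means of 4139 ± 454 and 5374 ± 700 TPM (SD, n = 3), or 0.362% to 0.442% of each library against 0.460% to 0.597%. Between 49 and 51 members reached 1 TPM in a DMMTA library, and 52 to 54 did in a control library.

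**Figure D2:**
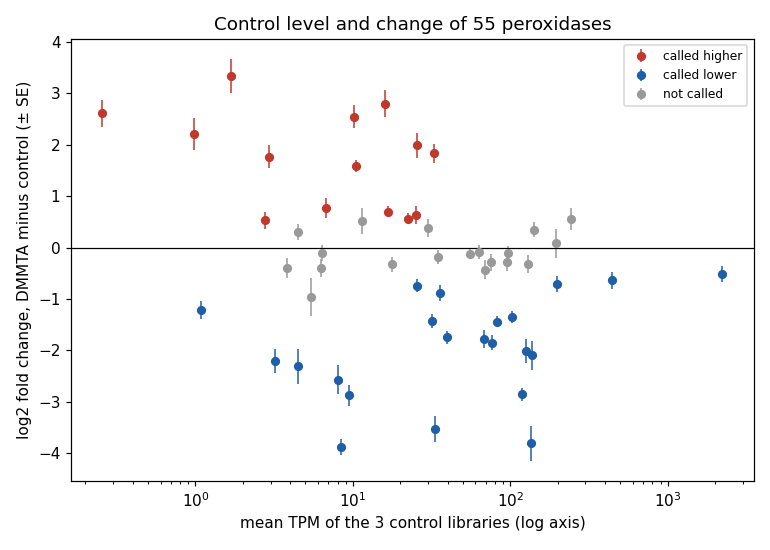
Each point is 1 of the 55 tested peroxidases, with its mean TPM over the 3 control libraries on a log horizontal axis and its log2 fold change, DMMTA minus control, with 1 standard error on the vertical axis. Called rises (red) have control means of at most 32.6 TPM, while called falls (blue) range up to 2228 TPM.

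A single gene set much of that sum. PRXR1, on chromosome 4 from 11646109 to 11648644, was the most abundant member and made up 35.5% to 44.3% of the family in each library. It held 2120, 2645 and 1920 TPM in control and 1283, 1773 and 1607 TPM in DMMTA. The groups did not overlap, and the fall of 0.52 ± 0.16 (SE) on the log2 scale was called at an adjusted p of 0.043 in limma. That call was lost in 7 of 17 alternative settings, where the adjusted p reached 0.126; 4 of these left out 1 library each, control replicate 1 or 2 or DMMTA replicate 1 or 3 (0.0735, 0.102, 0.126 and 0.0956).

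The 4 next most abundant members did not move as 1 group. The closest member to AT3G32980 by coding sequence is PRXCB, at 84.2% identity. AT3G32980 held 505, 444 and 374 TPM in control and 230, 292 and 329 TPM in DMMTA, without overlap. AT3G32980 fell by 0.64 on the log2 scale (adjusted p = 0.0164, limma). PRXCB and AT5G64120, the next in level, are given with the oxidative burst genes. AT5G64100 held 160, 119 and 148 TPM in control and 182, 154 and 210 TPM in DMMTA. Its groups overlapped, and its log2 fold change of 0.35 was not called (adjusted p = 0.11). In this order, by means over all 6 libraries of 1891, 362, 295, 193 and 162 TPM, the ranges of PRXCB and of its neighbours on either side overlapped, and so did those of AT5G64120 and AT5G64100.

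The peroxidases listed for root hairs all fell, in a list that need not hold every member active in root hairs. The list holds 7 loci known from root hair growth or named for root hair expression: RHS18 and RHS19 (root hair specific 18 and 19), AT1G05240, AT1G05250, AT1G30870, AT3G49960 and AT4G26010. All 7 were tested and all 7 fell, where 10.5% of all loci did so. Their median log2 fold change was -1.78, with values from -3.53 to -0.88. AT1G05240 and AT1G05250, whose values cannot be told apart, are counted separately here. Summed, the 7 loci held 318, 311 and 252 TPM in control and 89.0, 93.4 and 76.4 TPM in DMMTA.

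AT3G49960, on chromosome 3 from 18524084 to 18525792, fell the most. Its level was 31.0, 41.3 and 28.1 TPM in control and 1.73, 3.89 and 1.99 TPM in DMMTA, 13.2-fold lower by the means and -3.53 ± 0.26 (SE) on the log2 scale (adjusted p = 3.94e-05, limma). RHS18, on chromosome 5 from 7426310 to 7427964, held 7.46, 9.44 and 7.16 TPM in control and 0.606, 1.78 and 0.656 TPM in DMMTA, a log2 fold change of -2.57 ± 0.28 (adjusted p = 0.000271, limma). In both genes the highest treated library, DMMTA replicate 2, still lay far below the lowest control. RHS19 is the closest member to AT3G49960 by sequence, at 78.6% identity, and stood at 41.9, 42.7 and 33.8 TPM against 11.4, 11.1 and 11.4 TPM, 3.49-fold lower. The treated libraries of RHS19 were nearly equal to each other.

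The identical pair on chromosome 1 gave almost the same values in both copies. AT1G05240 held 78.9, 71.8 and 54.8 TPM in control and 20.8, 22.2 and 15.8 TPM in DMMTA. AT1G05250 held 84.7, 79.5 and 66.4 TPM in control and 20.9, 24.3 and 17.8 TPM in DMMTA. Summed before the fit, the pair changed by -1.83 on the log2 scale (adjusted p = 6.75e-05, limma), and no further statement about either copy is possible. AT1G30870 stood at 32.3, 34.2 and 28.6 TPM in control and 10.2, 13.8 and 10.5 TPM in DMMTA (-1.43 on the log2 scale). AT4G26010 had the smallest fall of the list, from 42.1, 32.5 and 33.1 TPM to 23.4, 16.5 and 18.2 TPM (-0.88), and its groups did not overlap either.

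Other root hair genes were lower in the same libraries. A list of 6 root hair markers (the expansins EXPA7 and EXPA18, PRP3, LRX1, SHV2 and the kinase gene IRE) summed to 99.1, 124 and 88.6 TPM in control and 20.9, 31.5 and 22.6 TPM in DMMTA. All 5 markers tested fell, where 10.5% of all loci did so. No marker of the list was at 0 in any library. PRP3, a proline-rich wall protein gene, fell the most of them, from 44.4 ± 12.2 to 6.18 ± 1.96 TPM (SD, n = 3). The part of this shift in the values of the 7 peroxidases was not tested.

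The genes that act with or above peroxidases moved unequally. RSL4, RSL2 and RHD6, transcription factors that drive root hair growth, fell, as 3 of a list of 5 regulators, by 1.00, 1.01 and 0.60 on the log2 scale. Among all loci tested, 10.5% fell. RSL4 held 9.78, 6.19 and 7.79 TPM in control and 3.75, 4.18 and 3.08 TPM in DMMTA (adjusted p = 0.00454, limma). UPB1, a repressor of peroxidase genes in the root tip, was in the same list and was not called. MYB36, the remaining regulator of that list, was not called either (0.47, adjusted p = 0.0657, limma). Its DMMTA libraries all lay above its control libraries. The list is thus not limited to genes that fell. Extensins are wall glycoproteins that peroxidases cross-link, and 4 of the 6 with a value fell, 4-fold or more each, where 0.606% of all loci did so. Extensin repeats are alike, so reads can be misassigned between them. EXT13, which fell the most, went from 29.3, 40.3 and 23.1 TPM to 0.416, 0.847 and 0.594 TPM (-4.79 ± 0.22, adjusted p = 6.24e-06, limma), and it passed the level filter only through the control libraries. EXT3 and EXT4, by far the most abundant extensins at control means of 1093 and 886 TPM, were not called.

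The sequence upstream of the members was searched for 4 short motifs, on both strands of the 250 bases before each annotated gene start in TAIR10.1. The root hair element, a promoter motif known from root hair genes and named here without its letters, was matched in 0.754% of 27443 windows of protein-coding genes. Among the 60 peroxidases it was matched in 3, AT2G35380, AT3G01190 and RHS18, of which the latter pair fell and the first was not called. It was matched in 1 of the 7 root hair peroxidases, RHS18. The windows of both members that fell are given because they carry the match, which is in capitals.

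RHS18, plus strand, chr5:7426060-7426309, match at bases -92 to -77 before the gene start.
RHS18: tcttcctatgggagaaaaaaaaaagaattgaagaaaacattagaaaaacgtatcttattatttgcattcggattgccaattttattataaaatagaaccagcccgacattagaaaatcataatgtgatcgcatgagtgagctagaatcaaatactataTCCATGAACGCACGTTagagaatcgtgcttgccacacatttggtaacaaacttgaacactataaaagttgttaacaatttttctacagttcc
AT3G01190, minus strand, chr3:68666-68915, written as the minus strand reads, match at bases -246 to -230. The match lies on the strand opposite to the one written, so the capitals are the reverse complement of the element.
AT3G01190: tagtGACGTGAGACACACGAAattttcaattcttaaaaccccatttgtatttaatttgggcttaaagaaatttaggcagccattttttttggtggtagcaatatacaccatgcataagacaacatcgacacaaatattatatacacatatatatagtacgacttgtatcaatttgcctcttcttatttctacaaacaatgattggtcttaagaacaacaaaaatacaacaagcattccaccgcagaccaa

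A match is a run of letters and no evidence of binding. The core of the W box, TTGAC, the site of WRKY transcription factors, was matched in 44.9% of all windows, in 9 of the 14 members that rose (64.3%) and in 9 of the 22 that fell (40.9%). TGACG, the core bound by TGA factors, which overlaps TTGAC where a T precedes it, was matched in 18.6% of all windows, in 2 of the 14 and in 5 of the 22. The G box, CACGTG, was matched in 6.49% of all windows and in 1 of the 60 members.

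The largest falls on the log2(TPM + 0.5) scale lay outside the root hair list. AT2G39040, on chromosome 2 from 16299242 to 16301245, held 8.35, 7.81 and 9.12 TPM in control and 0.0633, 0.205 and 0.0532 TPM in DMMTA. It fell by 3.88 ± 0.16 on the log2 scale (adjusted p = 4.93e-06, limma), or 78.7-fold by the means, with no treated library above 0.205 TPM. The level filter was passed only through its control libraries. AT5G19890, on chromosome 5 from 6724076 to 6725966, went from 113, 166 and 126 TPM to 5.78, 17.0 and 7.25 TPM (-3.81 ± 0.34, adjusted p = 0.000103, limma). Of the members with a control mean of at least 100 TPM, it showed the largest fall. AT4G30170 went from 126, 118 and 112 TPM to 13.7, 18.6 and 15.7 TPM, 7.43-fold lower, with libraries of each group close together.

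AT5G15180 and AT3G01190 are each other's closest members, at 74.1% identity, and both fell. AT5G15180 held 9.24, 8.01 and 11.2 TPM in control and 0.597, 1.18 and 0.824 TPM in DMMTA, 11.0-fold lower. AT3G01190, whose upstream window is given above, held 173, 85.3 and 117 TPM in control and 31.2, 25.3 and 32.7 TPM in DMMTA, 4.22-fold lower. The control libraries of AT3G01190 were spread over a wider range than its treated libraries.

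AT1G49570 fell by the same 4.22-fold, from 110, 181 and 122 TPM to 21.8, 47.9 and 28.3 TPM. AT1G34510 held 2.64, 4.53 and 2.43 TPM in control and 0.190, 0.321 and 0.319 TPM in DMMTA, a log2 fold change of -2.21 ± 0.23, and passed the level filter only through the control libraries. Replicate 2 was the highest library of its group in both genes, and the groups stayed apart. The remaining called falls outside the lists, AT2G37130, AT2G18980 and AT2G38380, had log2 fold changes of -1.44, -0.74 and -0.71.

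**Figure D3:**
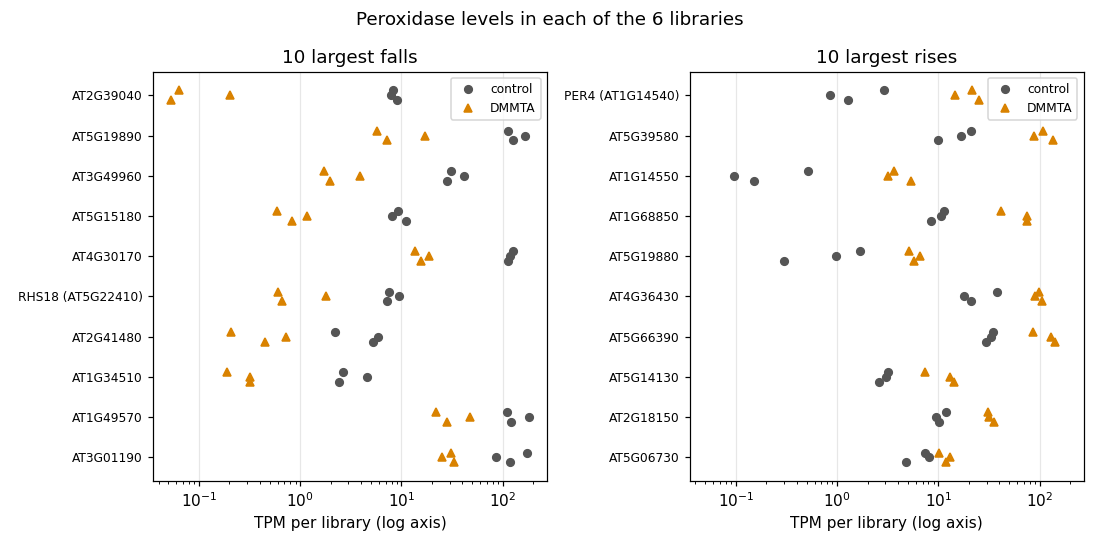
Each row is a peroxidase and each point 1 library, with TPM on a log horizontal axis, control libraries as grey circles and DMMTA libraries as orange triangles. The left panel has the 10 largest called falls and the right panel the 10 largest called rises, and in all 20 genes the groups do not overlap.

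The peroxidases known from the Casparian strip did not move as a group. This list holds RCI3, AT1G44970, AT4G11290 and AT5G66390 (PRX72), of which PRX72 rose and the other 3 were not called. PRX72, also known from stem lignin and on chromosome 5 from 26515905 to 26517599, held 34.9, 32.8 and 29.9 TPM in control and 86.5, 129 and 143 TPM in DMMTA (1.83 ± 0.18, adjusted p = 0.000155, limma). RCI3, also induced by cold, held 96.7, 101 and 90.5 TPM in control and 59.8, 90.9 and 88.7 TPM in DMMTA, overlapping in part (-0.29, adjusted p = 0.211). AT4G11290 held 72.1, 86.3 and 67.6 TPM in control and 48.0, 65.4 and 72.9 TPM in DMMTA and overlapped too (-0.29, adjusted p = 0.22). In RCI3 and AT4G11290, DMMTA replicate 1 was the lowest of the 6 libraries.

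AT1G44970 held 5.26, 6.60 and 4.49 TPM in control and 1.03, 3.58 and 3.91 TPM in DMMTA, with no overlap but a wide treated range, and it was not called (-0.96 ± 0.37, adjusted p = 0.0897, limma). It was called by limma-voom on rebuilt reads (adjusted p = 0.043). PER64, the Casparian strip peroxidase that the member rule leaves out, stood at 19.0, 20.4 and 16.2 TPM in control and 1.54, 5.90 and 3.37 TPM in DMMTA (-2.36, adjusted p = 0.00151). The summed level of the 4 list members was 209 ± 16.9 TPM in control and 264 ± 60.3 TPM in DMMTA (SD, n = 3), carried upwards by PRX72. Beside it, 7 endodermis markers (the Casparian strip scaffold genes CASP1 to CASP5, ESB1 and SCR) summed to 104, 105 and 101 TPM in control and 21.8, 53.3 and 43.9 TPM in DMMTA. Of the 6 markers tested, 5 fell, where 10.5% of all loci did so, and SCR was not called (-0.23). No endodermis marker was at 0 in any library, and the part of this shift in the peroxidase values was not tested.

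Several peroxidases of stem and vessel lignin rose. Of the 9 in the list, 5 rose (PER4, AT4G36430, PRX72, AT4G33420 and PRX52), AT2G41480 (PRX25) fell, and AT2G22420, AT5G51890 and AT5G64120 were not called. Among all loci tested, 17.4% rose and 10.5% fell. AT4G36430, on chromosome 4 from 17204385 to 17206033, held 38.1, 17.9 and 21.1 TPM in control and 99.2, 90.3 and 105 TPM in DMMTA (1.99 ± 0.24, adjusted p = 0.000507, limma). AT4G33420 rose by less, from 16.8, 17.8 and 15.6 TPM to 27.2, 28.8 and 26.4 TPM (0.70, adjusted p = 0.00122), with every library near its group mean. PRX52, known from interfascicular fibre lignin, had 2.39, 2.75 and 3.14 TPM in control and 4.15, 5.04 and 3.53 TPM in DMMTA (0.53, adjusted p = 0.0445). The call for PRX52 was lost in 8 of 16 alternatives, among them those without control replicate 1 or 2 or without DMMTA replicate 1 or 2 (adjusted p = 0.122, 0.0849, 0.0955 and 0.156).

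PRX25 went the other way, from 2.22, 5.90 and 5.27 TPM in control to 0.208, 0.731 and 0.452 TPM in DMMTA (-2.31 ± 0.34, adjusted p = 0.00142, limma), and passed the level filter only through the control libraries. Control replicate 1 was the lowest control and still lay above every treated library. AT5G51890 stood at 55.9, 59.2 and 52.1 TPM against 49.4, 55.5 and 48.1 TPM (-0.13, adjusted p = 0.365). AT2G22420 stood at 3.87, 4.45 and 3.12 TPM against 3.36, 2.85 and 2.11 TPM (-0.40, adjusted p = 0.152). Both overlapped between the groups. Summed over the 9 members, the level was 442, 328 and 242 TPM in control and 496, 524 and 525 TPM in DMMTA.

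Markers of xylem did not rise with them. A list of 7 (the secondary wall cellulose synthase genes IRX1, IRX3 and CESA4, the protease genes XCP1 and XCP2, and the regulators VND7 and MYB46) summed to 140 ± 9.7 TPM in control and 116 ± 12.6 TPM in DMMTA (SD, n = 3). Of the 6 tested, XCP1 fell (-0.46, adjusted p = 0.0165), and the median log2 fold change was -0.04. None of the 7 was at 0 in any library. Of the laccases, which also oxidise lignin units, 8 of 14 tested rose and 1 fell, where 17.4% and 10.5% of all loci did so, with a median log2 fold change of 0.80 against 0.04 over all loci. LAC12 rose the most, from 0.273, 0.244 and 0.309 TPM to 3.23, 7.15 and 7.12 TPM (2.96 ± 0.28, adjusted p = 0.00013, limma), and LAC10 fell, from 1.41, 1.70 and 1.13 TPM to 0.624, 0.651 and 0.647 TPM (-0.73, adjusted p = 0.0136). LAC12 passed the level filter only through the DMMTA libraries and LAC10 only through the control libraries, so both had to differ to be tested. A difference between laccases and lignin peroxidases was not tested.

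**Figure D4:**
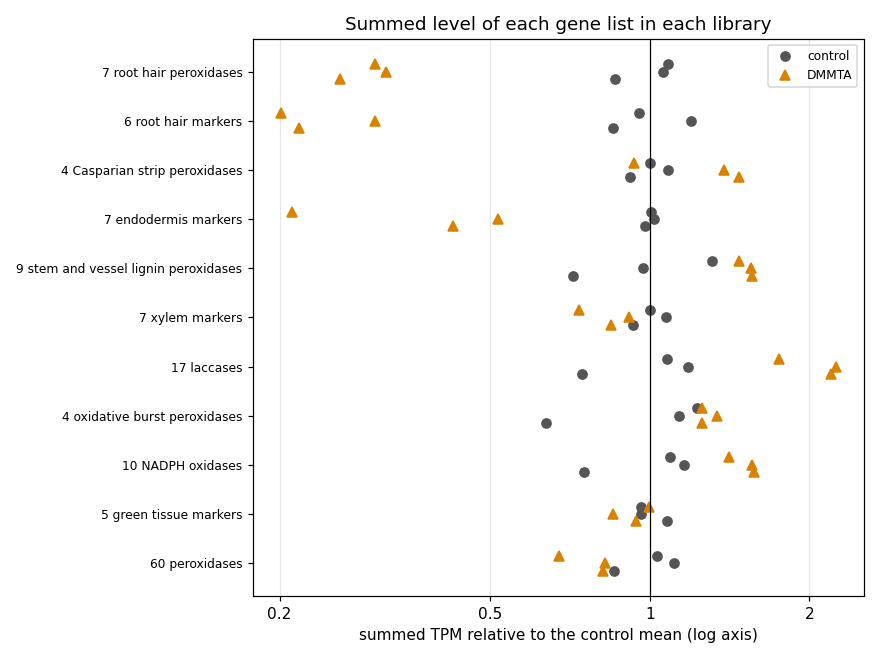
Each row is a gene list and each point 1 library, with the summed TPM of the list divided by its mean over the 3 control libraries on a log horizontal axis (control grey circles, DMMTA orange triangles). Root hair peroxidases and root hair markers lie far to the left in DMMTA, Casparian strip peroxidases overlap control while endodermis markers do not, and laccases and NADPH oxidases lie to the right.

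The peroxidases known from the apoplastic oxidative burst rose in part. PER4, on chromosome 1 from 4974021 to 4975705, had the largest rise of the family on the log2(TPM + 0.5) scale. Its level was 2.92, 0.853 and 1.29 TPM in control and 21.5, 14.6 and 25.4 TPM in DMMTA, 12.1-fold higher by the means and 3.34 ± 0.33 on the log2 scale (adjusted p = 0.000185, limma). Its neighbour AT1G14550 moved with it, from 0.520, 0.0957 and 0.151 TPM to 3.67, 3.19 and 5.41 TPM (2.61 ± 0.26, adjusted p = 0.000173), and passed the level filter only through the DMMTA libraries. By the means AT1G14550 rose more, 16.0-fold, and it also ranked above PER4 with a pseudocount of 0.1 (3.71 against 3.66) and by limma-voom (4.18 against 3.65). The 72.3% identity of the pair leaves runs of at most 19 shared bases. In both genes the lowest treated library was several times the highest control.

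PRXCA and PRXCB make hydrogen peroxide in the defence response. PRXCA held 21.6, 25.5 and 20.2 TPM in control and 34.2, 34.2 and 30.9 TPM in DMMTA, and rose (0.56 ± 0.11, adjusted p = 0.00752, limma). PRXCB, the more abundant copy, held 256, 310 and 161 TPM in control and 317, 372 and 352 TPM in DMMTA. Its groups were just apart, and with the same log2 fold change of 0.56 and a wider spread (SE 0.21) it was not called (adjusted p = 0.0826). Without control replicate 2 it was called (0.77, adjusted p = 0.0202), and the sum of both genes was not (adjusted p = 0.0698). AT5G64120 (PRX71), which is also known from lignin, held 285, 187 and 111 TPM in control and 204, 198 and 171 TPM in DMMTA. The treated values lay within the control range (0.08, adjusted p = 0.86).

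The NADPH oxidases, which feed the same apoplastic pool, gave 4 rises and 1 fall among 8 tested of 10, where 17.4% and 10.5% of all loci did so. RBOHD, the oxidase of the defence burst, held 25.0, 30.8 and 17.2 TPM in control and 43.5, 46.5 and 49.2 TPM in DMMTA (0.95, adjusted p = 0.00632, limma). RBOHA rose the most, from 2.37, 1.85 and 1.28 TPM to 5.31, 5.50 and 6.52 TPM (1.45, adjusted p = 0.000852), and RBOHB fell, from 7.11, 7.75 and 6.85 TPM to 2.63, 4.24 and 3.86 TPM (-0.95, adjusted p = 0.00443). RHD2, the oxidase of root hair tips, was not called (0.17, adjusted p = 0.475), with overlapping groups at 5.41 ± 1.3 and 6.07 ± 0.39 TPM (SD, n = 3).

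Other members with large rises have no entry in the role lists, which need not be complete. AT5G39580 shares 75.5% of its coding sequence with PRX71 and rose where PRX71 was not called. It held 21.1, 16.7 and 9.97 TPM in control and 107, 89.1 and 135 TPM in DMMTA (2.80 ± 0.26, adjusted p = 0.000118, limma). AT1G68850 held 11.3, 10.6 and 8.55 TPM in control and 41.6, 75.1 and 75.0 TPM in DMMTA, 6.29-fold higher. AT5G14130 rose 3.94-fold, from 3.22, 3.02 and 2.58 TPM to 7.38, 13.1 and 14.2 TPM. DMMTA replicate 1 was the lowest treated library of both AT1G68850 and AT5G14130, and it still exceeded every control.

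AT2G18150 is the closest member to AT4G36430, at 80.1% identity, and rose with it, from 11.9, 9.54 and 10.1 TPM to 30.7, 31.6 and 35.2 TPM (1.59 ± 0.12). AT5G06730 held 7.35, 8.15 and 4.78 TPM in control and 10.2, 13.0 and 11.9 TPM in DMMTA (0.77, adjusted p = 0.0192, limma). That call was lost without DMMTA replicate 2 or 3 (adjusted p = 0.0713 and 0.0659). AT4G37530 rose too (0.63, adjusted p = 0.0328), and this call did not hold without control replicate 2 or 3 or without DMMTA replicate 1 or 3 (adjusted p = 0.0698 to 0.122).

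Sequence likeness and direction of change were set side by side. Among the members, 16 pairs are each other's closest by coding sequence with both tested. All 16 had the same sign of change, 11 had the same call, and in 8 both genes were called in the same direction. The share to be found among unrelated members was not computed. The pair AT1G05240 and AT1G05250 is identical, so its agreement was fixed in advance. Some signs are uncertain, as for PRX71 (0.08, SE 0.29), AT5G40150 (-0.11, SE 0.15) and Prx37 (-0.11, SE 0.14). Where the likeness is not mutual, signs could differ: AT1G49570 fell while its closest member PRX72 rose, AT4G33420 rose while its closest member AT4G16270 fell, and AT3G32980 fell while its closest member PRXCB had a log2 fold change of 0.56, not called. These are examples, and signs were not counted over all pairs that are not mutual. Part of the likeness in direction can come from reads shared between copies and was not tested. The neighbours AT5G19880 and AT5G19890 lie in tandem on the minus strand of chromosome 5 and moved in opposite directions. AT5G19880 rose from 1.68, 0.975 and 0.301 TPM to 5.18, 6.57 and 5.81 TPM (2.21 ± 0.32, adjusted p = 0.00136, limma), while AT5G19890 fell by 3.81 on the same scale.

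In other neighbouring pairs 1 copy was called and the other was not. AT2G38380 fell (-0.71) and AT2G38390, 90.6% identical, was not called (-0.32). AT2G38390 was called without control replicate 3 (-0.53, adjusted p = 0.014, limma) and without both replicate 3 libraries (-0.60, adjusted p = 0.0218). The sum of the pair fell by 0.55 on the log2 scale (adjusted p = 0.0262, limma). AT4G37530 rose (0.63) and AT4G37520, 92.4% identical, was not called (0.38), with a sum at 0.50 (adjusted p = 0.0468). AT5G06730 rose (0.77) and PA2, 80.8% identical, was not called (0.30), with a sum at 0.62 (adjusted p = 0.0293). In these 3 pairs the difference between the copies was not tested. Prx37 and AT4G08780, 93.8% identical, were both not called, nor was their sum (-0.14, adjusted p = 0.478). AT4G08780 was called without control replicate 3 (-0.46, adjusted p = 0.0192), without both replicate 3 libraries (-0.53, adjusted p = 0.0291) and by limma-voom (-0.46, adjusted p = 0.024).

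The targets of UPB1 that are in the family were lower or not called. AT5G17820 held 118, 95.9 and 91.5 TPM in control and 37.6, 37.0 and 44.3 TPM in DMMTA (-1.35, adjusted p = 0.000125, limma). AT4G16270 held 1.03, 1.09 and 1.15 TPM in control and 0.136, 0.107 and 0.319 TPM in DMMTA (-1.22, adjusted p = 0.00156), and passed the level filter only through the control libraries. The third target, AT4G11290, is given with the Casparian strip genes. UPB1 itself averaged 9.54 ± 2.7 TPM in control and 11.9 ± 1.34 TPM with DMMTA (SD, n = 3). Of the anther and seed coat peroxidases, AT4G16270 fell, AT1G44970 was not called, and PER36 (AT3G50990), a seed coat gene, stayed below the filter with at most 0.0446 TPM in a library.

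The other members not called, among them AT1G71695, AT3G21770, AT3G28200, AT2G34060, AT5G40150 and AT2G35380, had log2 fold changes between -0.43 and 0.52. Leaving out 1 library gave a call for AT2G35380 (without DMMTA replicate 1, adjusted p = 0.00529), AT2G34060 (without control replicate 1, 0.0343) and AT3G21770 (without DMMTA replicate 2, 0.0367) in limma. AT1G77100, AT2G24800, AT4G31760 and AT5G47000 stayed below the filter like PER36, and the 5 together summed to at most 0.983 TPM in a library. Markers of root hairs, endodermis, xylem and green tissue were all detected. Green tissue markers summed to 18666 to 20940 TPM in control and 16564 to 19383 TPM in DMMTA. Of these 5 markers GAPA fell (-0.39, adjusted p = 0.0297, limma) and the other 4 were not called.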

How the data were processed

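The 3 control and 3 DMMTA libraries were made from poly(A) RNA with a strand-specific kit, per the labels' protocols. The authors deposited RPKM and FPKM values per coding sequence, per the file headers, which do not define them. DESeq2 is listed, without a version or role, in the submitters' processing notes. The aligner, the counting tool and the build were not given in any source used here. Rows whose description displaced or emptied their cells (1883 of 48350) were left out, and 46467 were used. In displaced rows a column that looks like reads, whose header cannot be told, was often fractional (43.3% to 47.5%). Whether reads were divided between identical sequences was not tested. RPKM was summed per locus (10270 loci had several rows) and brought to a common library total, and is called TPM here. Names and coordinates come from TAIR10.1, in which 26359 of 26360 nuclear loci had the same number of coding sequences as the files.

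The steps between low RPKM values gave the depth, and 87.9% to 93.5% of those values were no more than 0.2 read away from a whole read. The filter kept loci that reached 1 TPM in 3 or more libraries. The fit was made in R 4.3.3 with limma 3.58.1 on log2(TPM + 0.5), with an intensity trend and no covariates. The fit was tested on simulated data. Figures were drawn with matplotlib 3.10.9 and sequences read with Biopython 1.88. Alternatives were other filters, pseudocounts (0.1 and 2), FPKM, median-of-ratios scaling, limma-voom on rebuilt reads, summed neighbours, a replicate block, a threshold of 0.01 and libraries left out. The members and the role, pathway and marker lists were chosen with earlier results of these data known, and list counts are no independent support. Values in every library are given for the 10 largest called rises and falls, the 5 most abundant members and each tested member of a role list, and from each pathway list the largest called rise and fall are named. RHD2, RBOHD, RSL2, RHD6, EXT3, EXT4, UPB1, MYB36 and the markers were named besides.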

Additional observations from a re-analysis of the deposited data

How the results depend on the processing

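Of the 36 called peroxidases, 31 kept their call in each of the 17 alternatives in which they had a value, 5 lost it in at least 1 (PRXR1, AT3G32980, AT4G37530, AT5G06730 and PRX52), and 0 changed sign. Another 8 were called in at least 1 alternative. Members called ranged from 11 to 16 higher and from 19 to 25 lower, and leaving out 1 library gave 12 to 13 higher and 21 to 24 lower. Over all loci, leaving out 1 library gave 2241 to 3156 higher and 1150 to 1733 lower, the lowest of both without DMMTA replicate 3. Without both replicate 3 libraries, the shallowest, there were 2022 higher and 1000 lower, and at an adjusted p under 0.01 there were 1988 and 923. With fewer libraries or a stricter threshold, fewer loci pass. The share of calls that were higher over all loci was 62.3%, 55.4% under median-of-ratios scaling and 50.9% by limma-voom, and over members 38.9%, 37.1% and 34.2%. The median change of all loci stayed within 0.1 of 0 on the log2 scale in these alternatives.

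With the replicate number as a block, 16 members were called higher and 24 lower, and 3539 and 2242 of all loci. Same-numbered libraries had correlated deviations of 0.24, 0.33 and 0.08, so the numbers were not taken as pairs, although each library correlated best with its own number. The members that gained a call under the block were AT3G21770 (adjusted p = 0.0114), AT1G44970 (0.0334), PRXCB (0.0342) and AT5G64100 (0.0353), and no called member lost one.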

Other observations

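The annotation holds 13 other class III peroxidase loci outside the member list, of which 8 passed the filter. PER64, AT2G43480 and AT5G24070 fell, where 10.5% of all loci did so, and the other 5 were not called in limma. Over all 8 tested, 1 was higher and 3 were lower at an unadjusted p under 0.05, and limma-voom called 0 higher and 3 lower. AT2G43480 held 2.14, 1.88 and 2.29 TPM in control and 0.606, 0.963 and 0.505 TPM in DMMTA (adjusted p = 0.00247), and it passed the level filter only through the control libraries. AT5G24070 held 6.72, 6.35 and 5.03 TPM in control and 4.19, 2.37 and 1.95 TPM in DMMTA (adjusted p = 0.0148). The 13 loci summed to 47.0 ± 6.88 TPM in control and 28.2 ± 2.78 TPM in DMMTA (SD, n = 3), a small addition to the family.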
